A study of Mus musculus with 10 samples.

Results

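The genes followed here mark blood and connective tissue cells, and their transcripts were measured in RNA-seq libraries of sorted epithelial cells from mouse small intestine (SI) and thymus. The 39 genes were taken by symbol from a list of known markers, out of 43432 gene identifiers counted. They comprise 20 genes of T cells or thymocytes (developing T cells), 4 of B cells, 8 of myeloid cells, 1 of red cell precursors and 6 of stroma, meaning fibroblasts, pericytes, smooth muscle and endothelium. The study compared tuft cells, rare chemosensory epithelial cells, of both organs with the remaining SI epithelium.

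The groups were SI epithelium (n = 3 libraries), SI tuft cells (n = 3) and thymic tuft cells (n = 4). Every library came from 1 naïve male mouse of 12 weeks on the C57BL6 background, carrying Flare25, a fluorescent reporter of the cytokine gene Il25, on both alleles. All gates took DAPI- (live), CD45-, EPCAM+ cells. The tuft gates added reporter-positive cells and the epithelium gate added reporter-negative cells, so all groups carried the reporter allele. Between 52000 and 57000 epithelial cells, 35000 to 36000 SI tuft cells and 1350 to 1900 thymic tuft cells were sorted per library. The intestinal preparation used DTT and EDTA, and the thymic one enzymatic digestion (Liberase and DNase) followed by a Percoll gradient. Organ, dissociation and cell number therefore cannot be told apart.

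CD45, encoded by Ptprc, is carried by nearly all leukocytes, and a CD45- EPCAM+ gate is meant to leave epithelium. The thymus consists mostly of thymocytes held in an epithelial network, and the gut epithelium contains intraepithelial T cells, so fragments, doublets and free RNA of these neighbours are usual concerns in sorted epithelium. Some marker genes are also used by epithelial cells themselves, and thymic medullary epithelium is known for transcribing genes of other tissues.

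The gate and tuft cell genes followed the labels. Epcam was at 1187 to 1362 CPM (a gene's counts relative to all counts of its library, scaled by TMM) in SI epithelium, 1493 to 1666 CPM in SI tuft cells and 646 to 836 CPM in thymic tuft cells. Il25 was at 0.169 to 0.469 CPM in SI epithelium, 23.9 to 29.3 CPM in SI tuft cells and 8.58 to 33.3 CPM in thymic tuft cells. Pou2f3, the tuft cell transcription factor, was at 11.8 to 15.2 CPM, 592 to 800.0 CPM and 445 to 516 CPM. The ion channel gene Trpm5 reached 30.5 to 71.9 CPM, 4513 to 5939 CPM and 989 to 1231 CPM, and the kinase gene Dclk1 reached 24.4 to 32.2 CPM, 2419 to 2887 CPM and 887 to 1205 CPM. Transcripts of Ptprc were at 2.62 to 9.88 CPM in SI epithelium, 136 to 176 CPM in SI tuft cells and 49.2 to 71.6 CPM in thymic tuft cells, although every gate was CD45-.

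Libraries held 38659882 to 73574745 gene counts, so that 3 counts in a library corresponded to 0.0408 to 0.0776 CPM before TMM scaling. The filter on low counts left 19281 genes, and 34 of the 39 markers were among them. Rag2, Ptcra, Cd6, Cd79a and Cdh5 did not pass. Exons of Satb1, Ccr9, Rag1, Rag2, Lat, Themis, Pax5, Csf1r and Pdgfra overlap those of other annotated genes, and reads there cannot be assigned with certainty without strand. The spread between replicates (edgeR biological coefficient of variation) was 0.262 in SI epithelium, 0.489 in SI tuft cells and 0.780 in thymic tuft cells. SI epithelium libraries 1, 2 and 3 contained a fraction of the profile of thymic libraries 3, 2 and 1, estimated at 0.515%, 0.540% and 0.434% of what those libraries held, and the markers are set against these fractions at the end.

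In SI tuft cells against SI epithelium, 1 of the 34 markers tested rose, the macrophage gene Adgre1, which is 2.94% of them against 10.9% of all genes tested. By edgeR 0 markers fell, against 11.4% of all genes, with 2 lower at an unadjusted p below 0.05. DESeq2 called 4 higher (Cd2, Cd79b, Adgre1 and Pdgfrb) and 1 lower (Bcl11b). In thymic against SI tuft cells 15 markers rose, 44.1% of those tested against 28.5% of all genes, and 3 fell, 8.82% against 23.1%. In thymic tuft cells against SI epithelium 20 rose, 58.8% against 28.6%, and 1 fell, 2.94% against 22.3%. DESeq2 called 20 higher and 2 lower in the former comparison and 23 higher and 1 lower in the latter. Libraries did not overlap, with SI tuft cells higher, for 8 of the 34 (22.8% of all genes tested) and lower for 4 (28.4%). The same counts were 14 (26.3%) and 4 (24.9%) for thymic against SI tuft cells, and 16 (28.0%) and 1 (27.4%) for thymic tuft cells against SI epithelium. The comparisons share libraries and are not independent of each other. A marker found in 1 group only passes the filter through that group, so these counts describe the list and do not test it. Scaling by DESeq2 size factors moved the median log2 fold change of all genes from 0.12 to 0.36 in thymic against SI tuft cells and from 0.15 to 0.38 in thymic tuft cells against SI epithelium, and no called marker changed direction. The heat map of the markers by library shows where each transcript was found.

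**Figure D1:**
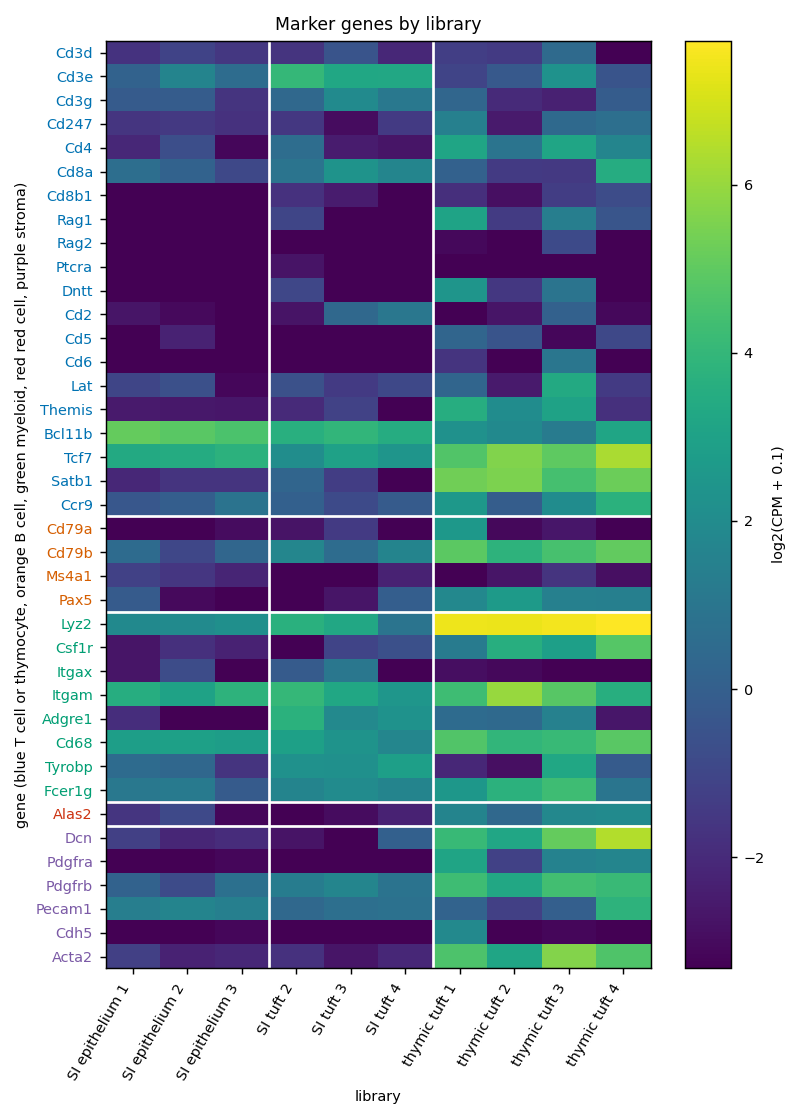
Level of the 39 marker genes in each of the 10 libraries, as log2(CPM + 0.1), with genes in rows grouped by source and libraries in columns. Lyz2 is the brightest row in all 4 thymic tuft libraries, Bcl11b is brightest in SI epithelium, and Rag1 is dark in all SI epithelium libraries.

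Summed over the 20 T cell or thymocyte genes, the level was 46.6 ± 4.49 CPM (SD, n = 3) in SI epithelium, 40.5 ± 4.96 CPM (n = 3) in SI tuft cells and 122 ± 25 CPM (n = 4) in thymic tuft cells. Without Tcf7, Satb1 and Bcl11b, a subset chosen after the values were seen, the other 17 genes summed to 4.27 to 7.64 CPM in SI epithelium, 18.5 to 23.7 CPM in SI tuft cells and 9.50 to 48.2 CPM in thymic tuft cells. The 4 B cell genes summed to 0.658 to 2.47 CPM, 1.74 to 4.06 CPM and 20.6 to 39.5 CPM. The 8 myeloid genes summed to 23.5 to 26.4 CPM, 26.4 to 58.5 CPM and 225 to 281 CPM, and the 6 stromal genes to 3.76 to 4.54 CPM, 3.86 to 4.73 CPM and 28.3 to 148 CPM. The thymic sums lay above those of both SI groups in every library for each whole source, as the plot of summed levels shows, whereas the sums of the 17 genes overlapped between thymic and SI tuft cells. Lyz2 alone, at 168 to 209.5 CPM, made up most of the thymic myeloid sums. Cd79b, at 14.1 to 33.2 CPM, made up most of the thymic B cell sums. In bulk libraries, fewer cells of a type and less RNA per cell cannot be told apart.

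**Figure D2:**
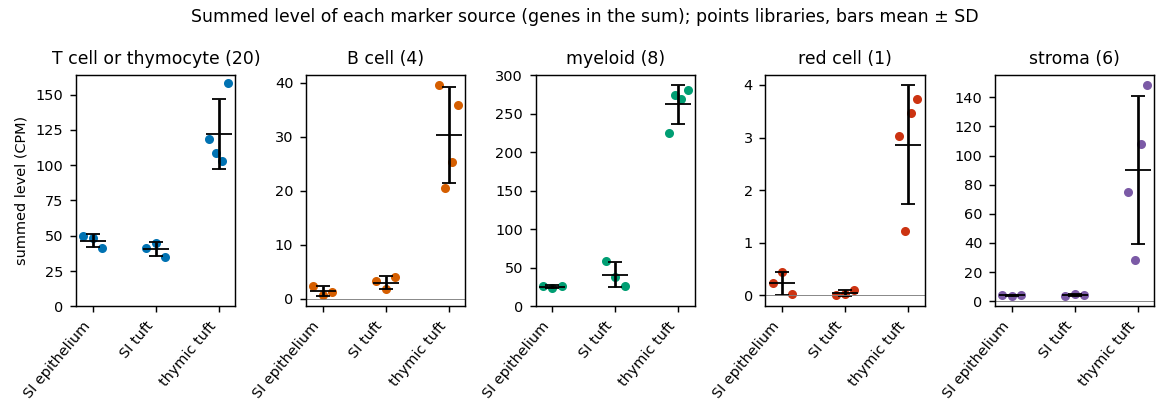
Summed level of the markers of each source (CPM) in each library, with the number of genes in brackets. Points are libraries and bars are mean ± SD (n = 3, 3 and 4). All 4 thymic tuft libraries sit above the SI libraries in each panel.

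Among transcription factors of the T lineage, Tcf7, Satb1 and Bcl11b each had a pattern of their own. Tcf7, which encodes the T lineage factor TCF-1, was at 10.2, 10.9 and 13.3 CPM in SI epithelium, 4.20, 7.97 and 5.36 CPM in SI tuft cells and 25.9, 49.2, 31.2 and 79.2 CPM in thymic tuft cells. Every thymic library was above every SI library, and the SI tuft libraries lay below those of epithelium. Tcf7 was higher in thymic than in SI tuft cells by a log2 fold change of 2.99 (SE 0.42, edgeR adjusted p = 9.70e-05) and higher than in SI epithelium by 2.02 (SE 0.40, edgeR adjusted p = 0.00127). Satb1, a chromatin organiser of thymocytes, was at 0.132, 0.212 and 0.212 CPM in SI epithelium, 1.12, 0.299 and 0 CPM in SI tuft cells and 39.8, 46.1, 21.7 and 37.3 CPM in thymic tuft cells. Its thymic libraries lay within a narrow range far above all SI libraries. The differences were 6.24 (SE 0.93, edgeR adjusted p = 0.000150) against SI tuft cells and 7.59 (SE 1.00, edgeR adjusted p = 5.50e-05) against SI epithelium on the log2 scale.

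Bcl11b, the T cell commitment factor, ran the other way. It was at 34.8, 29.4 and 23.8 CPM in SI epithelium, 12.4, 15.4 and 11.3 CPM in SI tuft cells and 4.69, 3.65, 2.31 and 8.83 CPM in thymic tuft cells, with no overlap between any of the groups. Bcl11b was lower in thymic than in SI tuft cells by a log2 fold change of -1.42 (SE 0.41, edgeR adjusted p = 0.0118) and lower than in SI epithelium by -2.59 (SE 0.42, edgeR adjusted p = 0.000266). The call against SI tuft cells ended when only those groups were fitted (edgeR adjusted p = 0.0803). SI tuft cells and epithelium differed by -1.17 (SE 0.44, edgeR adjusted p = 0.0796), which did not pass. It passed by DESeq2 (DESeq2 adjusted p = 0.0368), with only these groups fitted (edgeR adjusted p = 0.00139) and without thymic library 3 or 4 (edgeR adjusted p = 0.0381 and 0.0179).

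Of the genes of the CD3 complex, which carries the T cell receptor to the surface and signals for it, Cd3e stood at the highest level and did so in SI tuft cells. Cd3e was at 0.997, 3.01 and 1.38 CPM in SI epithelium, 16.1, 9.31 and 9.71 CPM in SI tuft cells and 0.378, 0.753, 4.89 and 0.627 CPM in thymic tuft cells. All SI tuft libraries were above all others, and thymic library 3 stood apart from the other thymic libraries. Cd3e was lower in thymic than in SI tuft cells by a log2 fold change of -2.81 (SE 0.85, edgeR adjusted p = 0.0153). That call ended without SI tuft library 2 (edgeR adjusted p = 0.0580). SI tuft cells exceeded SI epithelium by 2.70 (SE 0.94, edgeR adjusted p = 0.0587), which did not pass, and passed without thymic library 1, 3 or 4 or with only these groups fitted (edgeR adjusted p as low as 0.000855).

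The partner chains of CD3 epsilon were at lower levels. Cd3g (gamma chain) was at 0.790, 0.828 and 0.212 CPM in SI epithelium, 1.21, 3.84 and 2.03 CPM in SI tuft cells and 1.15, 0.151, 0.101 and 0.835 CPM in thymic tuft cells, and edgeR called no difference. With only the SI groups fitted, Cd3g was higher in SI tuft cells (edgeR adjusted p = 0.0453). In SI tuft libraries 2, 3 and 4 there were 0.0756, 0.412 and 0.209 counts of Cd3g per count of Cd3e, and 0.0136, 0.0673 and 0.0136 counts of Cd3d (delta chain). Per kilobase of exon, the mean SI tuft level was 2.87 CPM for Cd3e, 0.722 CPM for Cd3g and 0.179 CPM for Cd3d. Cd247 (zeta chain) ranged from 0.0272 to 0.264 CPM over the SI libraries of both kinds and from 0.0753 to 2.71 CPM in thymic tuft cells, and Cd3d did not exceed 1.30 CPM in any library. The exons of Cd3e and Cd247 overlap other annotated genes (Gm48719, and Gm16565 and Pou2f1). As no strand was recorded, reads of these neighbours may be included in both.

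The co-receptor genes were spread unevenly over libraries. Cd4 was at 0.132, 0.531 and 0.0151 CPM in SI epithelium, 1.43, 0.0816 and 0.0528 CPM in SI tuft cells and 8.99, 1.81, 8.97 and 3.19 CPM in thymic tuft cells. All thymic libraries were above all SI libraries, most so libraries 1 and 3. Cd4 was higher in thymic tuft cells than in SI epithelium by a log2 fold change of 4.68 (SE 1.45, edgeR adjusted p = 0.0179), a call that ended without SI epithelium library 1 or 3 (edgeR adjusted p = 0.0742 and 0.0601). Against SI tuft cells the edgeR adjusted p was 0.05002, just above the threshold, and it passed under 10 of 16 alternatives. Cd8a was at 1.51, 1.02 and 0.424 CPM in SI epithelium, 1.77, 4.98 and 3.11 CPM in SI tuft cells and 0.985, 0.263, 0.260 and 11.4 CPM in thymic tuft cells. Library 4 held 88.3% of the thymic sum, and no comparison of Cd8a passed with all libraries. Without that library Cd8a was lower in thymic than in SI tuft cells (edgeR adjusted p = 0.0218), and with only the SI groups fitted it was higher in SI tuft cells (edgeR adjusted p = 0.0409). Cd8b1 was at 0 in all SI epithelium libraries, 0.194, 0.0816 and 0 CPM in SI tuft cells and 0.181, 0.0376, 0.303 and 0.494 CPM in thymic tuft cells. It was at least 14.1-fold higher in thymic tuft cells than in SI epithelium, against 3 counts over the group (edgeR adjusted p = 0.0146). This call ended without any 1 of SI epithelium libraries 1, 2 and 3 (edgeR adjusted p = 0.0619, 0.0590 and 0.0642). Without thymic library 1, 3 or 4, Cd8b1 did not pass the filter on low counts and was not tested.

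The antigen receptor rearrangement genes, which define immature thymocytes, were concentrated in thymic libraries 1 and 3. Rag1, the recombinase, was at 0 in all SI epithelium libraries, 0.389, 0 and 0 CPM in SI tuft cells and 8.26, 0.282, 2.55 and 0.646 CPM in thymic tuft cells. It was at least 163-fold higher in thymic tuft cells than in SI epithelium (edgeR adjusted p = 0.00822), and its libraries overlapped with those of SI tuft cells (edgeR adjusted p = 0.0661). The latter difference passed by DESeq2 (DESeq2 adjusted p = 0.0178) and without SI tuft library 2, thymic library 2 or thymic library 4 (edgeR adjusted p = 0.0180, 0.0456 and 0.0465). Dntt, the polymerase that adds bases at the joints, was at 0 in SI epithelium, 0.413, 0 and 0 CPM in SI tuft cells and 5.37, 0.245, 1.82 and 0 CPM in thymic tuft cells. It was at least 103-fold higher in thymic tuft cells than in SI epithelium (edgeR adjusted p = 0.0249), although thymic library 4 had no count. The Dntt call ended without any 1 of SI epithelium libraries 1, 2 and 3 (edgeR adjusted p = 0.0707, 0.0684 and 0.0750). Rag2, the partner of Rag1, had 33 counts in thymic tuft cells, of which 32 were in library 3, and none in the SI libraries. Library 1, which had 503 counts of Rag1, had 1 count of Rag2. Ptcra, the pre-T cell receptor alpha chain, had 0 counts in all thymic and SI epithelium libraries and 2 in SI tuft library 2. A count of 0 over the 4 thymic libraries allows up to 0.0127 CPM, for counting error only.

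Among signalling and surface genes of T cells, Themis, a regulator of thymocyte selection, was at 0.0753, 0.0637 and 0.0606 CPM in SI epithelium, 0.146, 0.354 and 0 CPM in SI tuft cells and 11.7, 4.03, 8.14 and 0.190 CPM in thymic tuft cells. Libraries 1 to 3 were high and library 4 was not. Themis was higher in thymic tuft cells than in SI tuft cells by a log2 fold change of 5.16 (SE 1.43, edgeR adjusted p = 0.00976) and than in SI epithelium by 6.45 (SE 1.53, edgeR adjusted p = 0.00404). Ccr9, a chemokine receptor of thymocytes and gut-homing T cells, was at 0.696, 0.891 and 1.73 CPM in SI epithelium, 0.947, 0.463 and 0.792 CPM in SI tuft cells and 5.74, 0.847, 4.05 and 13.1 CPM in thymic tuft cells. Thymic library 2 overlapped with both SI groups. Ccr9 was higher in thymic tuft cells by 3.01 (SE 0.90, edgeR adjusted p = 0.0144) against SI tuft cells and by 2.42 (SE 0.87, edgeR adjusted p = 0.0342) against SI epithelium. The calls ended without SI tuft library 3 (edgeR adjusted p = 0.0595) and without SI epithelium library 1, 2 or 3 or thymic library 4 (edgeR adjusted p = 0.124, 0.114, 0.0558 and 0.0997). The latter also ended with only these groups fitted (edgeR adjusted p = 0.0509).

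Cd5, a brake on receptor signalling, was at 0, 0.106 and 0 CPM in SI epithelium, 0 in SI tuft cells and 1.10, 0.621, 0.0144 and 0.418 CPM in thymic tuft cells, at least 20.8-fold above SI tuft cells (edgeR adjusted p = 0.0231). That call ended without SI tuft library 2, 3 or 4 (edgeR adjusted p = 0.0708, 0.0684 and 0.0686). Without thymic library 1, 2 or 4, Cd5 did not pass the filter on low counts and was not tested. Thymic library 3, lowest for Cd5, was the highest for Lat, Cd2 and Cd6. Lat, the adaptor downstream of the receptor, was at 0.395, 0.552 and 0.0151 CPM in SI epithelium, 0.559, 0.272 and 0.422 CPM in SI tuft cells and 1.10, 0.0753, 10.4 and 0.266 CPM in thymic tuft cells. Library 3 held 87.9% of the thymic Lat sum, 92.8% of that of the adhesion gene Cd2 and 89.9% of that of Cd6. By edgeR neither Lat nor Cd2 was called. Cd6, with 132 of its 145 thymic counts in library 3, did not pass the filter and was not tested. DESeq2 called Lat higher in thymic tuft cells than epithelium (DESeq2 adjusted p = 0.0267) and Cd2 higher in SI tuft cells than epithelium (DESeq2 adjusted p = 0.0316).

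Further genes of T cells gave a mixed picture. Of 17 genes for T cell signalling and receptor chains, 13 were tested. Of these 2 rose and 0 fell by edgeR in SI tuft cells against SI epithelium, 2 rose and 1 fell in thymic against SI tuft cells, and 5 rose and 0 fell in thymic tuft cells against SI epithelium. The shares that rose were 15.4%, 15.4% and 38.5%, in that order, against 10.9%, 28.5% and 28.6% of all genes. The kinase gene Lck was at 0.403 to 0.469 CPM in SI epithelium, 6.88 to 13.7 CPM in SI tuft cells and 0.152 to 10.0 CPM in thymic tuft cells. SI tuft libraries held 0.740 to 0.852 counts of Lck per count of Cd3e. Fyb, a haematopoietic adaptor, was at 12.3 to 17.9 CPM, 1233 to 1344 CPM and 468 to 571 CPM, in all tuft libraries far above epithelium. Il7r, the interleukin 7 receptor, was at up to 0.0212 CPM in SI epithelium, up to 0.396 CPM in SI tuft cells and 0.380 to 5.99 CPM in thymic tuft cells. Of 11 genes tested for intraepithelial lymphocytes, 1 rose and 0 fell by edgeR in SI tuft cells against SI epithelium. That is 9.09% higher, near the 10.9% of all genes. In thymic against SI tuft cells 1 rose, 9.09% against 28.5% of all genes, and 3 fell, 27.3% against 23.1%. The granzyme genes Gzma and Gzmb were at 15.1 to 29.2 and 15.0 to 30.1 CPM in SI tuft cells, 3.45 to 5.85 and 2.18 to 6.91 CPM in SI epithelium, and up to 1.03 and 5.61 CPM in thymic tuft cells. The chemokine gene Ccl5 was instead highest in thymic tuft cells, at 51.4 to 176 CPM, against 11.2 to 15.8 CPM in SI tuft cells and 1.77 to 6.11 CPM in SI epithelium. Fasl, the ligand of the death receptor Fas, stayed at or below 0.594 CPM in every library.

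The B cell genes divided into a pair present in every thymic library and a pair that was not. Cd79b, the beta signalling chain of the B cell receptor, was at 1.34, 0.403 and 1.17 CPM in SI epithelium, 3.21, 1.41 and 3.06 CPM in SI tuft cells and 30.3, 14.1, 22.4 and 33.2 CPM in thymic tuft cells. Its groups did not overlap, and the thymic libraries lay within a narrow range. Cd79b was higher in thymic than in SI tuft cells by a log2 fold change of 3.29 (SE 0.53, edgeR adjusted p = 0.000296) and than in SI epithelium by 4.69 (SE 0.58, edgeR adjusted p = 3.15e-05). Its obligate partner chain gene Cd79a was at 5.79, 0.0188, 0.0577 and 0 CPM in the same thymic libraries, so that library 1 held 98.7% of the sum. In the SI libraries Cd79a had 2 counts over epithelium and 12 over tuft cells.

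Pax5, the B lineage factor, was at 0.790, 0.0212 and 0 CPM in SI epithelium, 0, 0.0544 and 0.897 CPM in SI tuft cells and 3.41, 6.4, 2.68 and 2.60 CPM in thymic tuft cells. All thymic libraries were above all SI libraries, and neither thymic comparison passed with all libraries (edgeR adjusted p = 0.103 and 0.0877). DESeq2 called Pax5 higher in both (DESeq2 adjusted p = 0.0320 and 0.0223). So did edgeR without SI tuft library 4 in the former (edgeR adjusted p = 0.0295) and without SI epithelium library 1 in the latter (edgeR adjusted p = 0.0152). Ms4a1, which encodes CD20, was at 0.339, 0.233 and 0.121 CPM in SI epithelium, 0, 0 and 0.106 CPM in SI tuft cells and 0, 0.0564, 0.216 and 0.0380 CPM in thymic tuft cells. Of 10 further B cell genes tested, 7 rose and 0 fell by edgeR in thymic against SI tuft cells and 8 rose and 0 fell against SI epithelium, above the 28.5% and 28.6% of all genes that rose. Ighm, the heavy chain constant gene, was at 58.2 to 82.8 CPM in thymic tuft cells, 2.20 to 3.72 CPM in SI tuft cells and 0.348 to 1.63 CPM in SI epithelium. Fcer2a, which encodes CD23, was at 26.4 to 66.2 CPM in thymic tuft cells and at most 0.358 CPM elsewhere.

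The myeloid genes included the most abundant marker of all, Lyz2, the lysozyme of macrophages and neutrophils. It was at 3.73, 3.78 and 4.42 CPM in SI epithelium, 12.8, 9.61 and 1.82 CPM in SI tuft cells and 170.0, 168, 184 and 209.5 CPM in thymic tuft cells. The thymic libraries were the most even of any marker, with 28.6% of their sum in the highest, where 25% would be equal. Lyz2 was higher in thymic than in SI tuft cells by a log2 fold change of 4.50 (SE 0.52, edgeR adjusted p = 1.78e-05) and than in SI epithelium by 5.52 (SE 0.55, edgeR adjusted p = 4.99e-06). Cd68, a lysosomal protein gene of macrophages, was at 7.15, 7.60 and 6.92 CPM in SI epithelium, 7.56, 5.01 and 3.25 CPM in SI tuft cells and 26.1, 15.0, 17.4 and 29.3 CPM in thymic tuft cells. Cd68 was thus present in every library, and its thymic level was higher by 2.06 (SE 0.39, edgeR adjusted p = 0.000890) and 1.61 (SE 0.38, edgeR adjusted p = 0.00404) on the log2 scale against SI tuft cells and SI epithelium. Per kilobase of exon, the thymic means were 139 CPM for Lyz2 and 17.5 CPM for Cd68.

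Receptor genes that define macrophages did not move together. Csf1r, the receptor for macrophage colony-stimulating factor, was at 0.0565, 0.191 and 0.106 CPM in SI epithelium, 0, 0.381 and 0.554 CPM in SI tuft cells and 2.28, 12.0, 7.44 and 27.7 CPM in thymic tuft cells. It was higher in thymic than in SI tuft cells by a log2 fold change of 5.31 (SE 1.21, edgeR adjusted p = 0.00316) and than in SI epithelium by 6.70 (SE 1.30, edgeR adjusted p = 0.00112). Adgre1, which encodes F4/80, was at 0.169, 0 and 0 CPM in SI epithelium, 13.2, 3.51 and 4.78 CPM in SI tuft cells and 1.35, 1.26, 2.80 and 0.0570 CPM in thymic tuft cells. Library 4, highest of the thymic libraries for Csf1r, was lowest for Adgre1. SI tuft cells exceeded SI epithelium in Adgre1 by 6.94 (SE 1.69, edgeR adjusted p = 0.0109), a call kept under all 16 alternatives run. Thymic tuft cells exceeded SI epithelium by 4.56 (SE 1.51, edgeR adjusted p = 0.0243), which ended without SI epithelium library 2 or 3 (edgeR adjusted p = 0.0814 and 0.0802) and with only these groups fitted (edgeR adjusted p = 0.0594).

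The integrin genes went in opposite directions. Itgam (CD11b) was at 11.8, 8.09 and 14 CPM in SI epithelium, 16.4, 9.44 and 5.46 CPM in SI tuft cells and 19.6, 64.4, 28.5 and 11.9 CPM in thymic tuft cells. Thymic library 4 overlapped with both SI groups. Itgam was higher in thymic tuft cells by a log2 fold change of 1.58 (SE 0.55, edgeR adjusted p = 0.0311) against SI tuft cells and 1.46 (SE 0.55, edgeR adjusted p = 0.0419) against SI epithelium. The former call ended without SI tuft library 3 or 4 or thymic library 2 (edgeR adjusted p = 0.0949, 0.118 and 0.103). The latter ended without any 1 of 6 libraries: SI epithelium 1, 2 and 3, SI tuft 3 and thymic 2 and 3 (edgeR adjusted p = 0.105, 0.145, 0.0775, 0.0575, 0.145 and 0.0561). Exons of Itgam lie largely within the annotated gene Gm49368 on the same strand, so its counts are uncertain. Itgax (CD11c) was at 0.0565, 0.488 and 0 CPM in SI epithelium, 0.802, 1.96 and 0 CPM in SI tuft cells and 0.0328, 0.0188, 0 and 0 CPM in thymic tuft cells. With 3 counts in thymic tuft cells, the pooled level in SI tuft cells was 71.4-fold higher (exact 95% counting interval 23.8 to 352, edgeR adjusted p = 0.0243). This call ended without SI tuft library 2 or 3 or thymic library 3 (edgeR adjusted p = 0.0516, 0.0990 and 0.0508).

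The signalling adaptors Tyrobp and Fcer1g, which pair with many myeloid and lymphoid receptors, differed in evenness. Tyrobp was at 1.36, 1.19 and 0.212 CPM in SI epithelium, 4.74, 4.60 and 7.47 CPM in SI tuft cells and 0.131, 0.0376, 9.45 and 0.797 CPM in thymic tuft cells. All SI tuft libraries were above those of epithelium, thymic library 3 held 90.7% of the thymic sum, and no comparison passed with all libraries. Without that library Tyrobp was lower in thymic than in SI tuft cells (edgeR adjusted p = 0.0121), and with only the SI groups fitted it was higher in SI tuft cells (edgeR adjusted p = 0.00749). Fcer1g was at 2.03, 2.16 and 0.802 CPM in SI epithelium, 3.04, 3.86 and 3.06 CPM in SI tuft cells and 5.65, 13.7, 19.5 and 1.88 CPM in thymic tuft cells. It was higher in thymic tuft cells than in SI epithelium by a log2 fold change of 2.61 (SE 0.75, edgeR adjusted p = 0.0121), a call that ended without SI epithelium library 3 (edgeR adjusted p = 0.0586).

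Of 13 further macrophage and dendritic cell genes tested, 0 rose and 0 fell by edgeR in SI tuft cells against SI epithelium, 8 rose and 0 fell in thymic against SI tuft cells and 9 rose and 0 fell against SI epithelium, which is 61.5% and 69.2% higher against 28.5% and 28.6% of all genes. The mannose receptor gene Mrc1 was at 22.6 to 37.1 CPM in thymic tuft cells and at most 3.52 CPM elsewhere, whereas the cathepsin gene Ctss was at 17.7 to 26.5 CPM in all 10 libraries. The dendritic cell genes Flt3 and Xcr1 were at 0.209 to 3.30 CPM and 0 to 1.12 CPM in thymic tuft cells. Of 14 granulocyte and mast cell genes listed, 12 were tested. Of these, 9 rose and 1 fell in thymic against SI tuft cells. That is 75% higher and 8.33% lower, beside 28.5% and 23.1% of all genes. The neutrophil genes S100a9 and Mpo were at 8.37 to 24.3 and 3.61 to 32.7 CPM in thymic tuft cells, at 0 in SI tuft cells and at or below 0.132 CPM in SI epithelium. Elane, another neutrophil gene of the list, had no count in any library and was not tested. Siglecf, used as a marker of eosinophils, was at 1074 to 1184 CPM in SI tuft cells, 12.4 to 21.5 CPM in thymic tuft cells and 9.53 to 15.7 CPM in SI epithelium.

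The red cell precursor gene Alas2, which encodes the enzyme that starts haem synthesis there, was at 0.226, 0.446 and 0.0151 CPM in SI epithelium, 0, 0.0272 and 0.106 CPM in SI tuft cells and 3.04, 1.22, 3.46 and 3.74 CPM in thymic tuft cells. Every thymic library was above every SI library. Alas2 was higher in thymic than in SI tuft cells by a log2 fold change of 5.96 (SE 1.43, edgeR adjusted p = 0.00428) and than in SI epithelium by 3.65 (SE 1.23, edgeR adjusted p = 0.0269). The latter call ended without SI epithelium library 1 or 3 (edgeR adjusted p = 0.0941 and 0.0833). Of 7 further red cell genes tested, 2 rose and 2 fell in thymic against SI tuft cells, near the 28.5% and 23.1% of all genes. Globin genes had another pattern than Alas2: Hba-a2 had 0 counts in all thymic libraries and was at 0.501 to 3.06 CPM in SI tuft cells. Hba-a1 was at 0.0376 to 0.460 CPM and Hbb-bs at 0 to 0.790 CPM in thymic tuft cells, against 0.633 to 4.37 and 2.70 to 2.91 CPM in SI tuft cells. The red cell factor Klf1 did not exceed 0.649 CPM in any library. Exons of Alas2 overlap Apex2 and Mir3620, which limits its counts.

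Of the stromal genes, Acta2, Dcn, Pdgfrb and Pdgfra rose in thymic tuft cells against both SI groups. Acta2, the smooth muscle actin, was at 0.320, 0.106 and 0.136 CPM in SI epithelium, 0.194, 0.0544 and 0.132 CPM in SI tuft cells and 24.8, 8.96, 50.3 and 25.4 CPM in thymic tuft cells. It was higher by a log2 fold change of 7.71 (SE 0.81, edgeR adjusted p = 7.98e-06) against SI tuft cells and 7.17 (SE 0.77, edgeR adjusted p = 1.01e-05) against SI epithelium. Dcn, the fibroblast matrix proteoglycan decorin, was at 0.320, 0.127 and 0.167 CPM in SI epithelium, 0.0486, 0 and 0.95 CPM in SI tuft cells and 17.2, 9.09, 33.8 and 87.8 CPM in thymic tuft cells. Its thymic libraries spanned a wide range but did not overlap with the SI groups, and the log2 fold changes were 6.79 (SE 1.27, edgeR adjusted p = 0.000839) and 7.48 (SE 1.31, edgeR adjusted p = 0.000524).

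The receptors for platelet-derived growth factor, carried by fibroblasts and pericytes, were both higher in thymic tuft cells. Pdgfrb was at 1.02, 0.467 and 1.60 CPM in SI epithelium, 2.38, 3.16 and 1.72 CPM in SI tuft cells and 19.5, 9.58, 20.4 and 18.0 CPM in thymic tuft cells, among the more even markers. It was higher by a log2 fold change of 2.80 (SE 0.52, edgeR adjusted p = 0.000815) against SI tuft cells and 4.03 (SE 0.56, edgeR adjusted p = 8.26e-05) against SI epithelium. Pdgfra was at 0, 0 and 0.0151 CPM in SI epithelium, 0 in SI tuft cells and 8.72, 0.339, 2.87 and 3.15 CPM in thymic tuft cells. It was at least 145-fold higher than in SI tuft cells (edgeR adjusted p = 0.00114), and with 1 count in SI epithelium the pooled ratio there was 644 (exact 95% counting interval 115 to 25462, edgeR adjusted p = 0.00142).

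The endothelial genes rested on single thymic libraries. Pecam1 (CD31) was at 2.5, 3.06 and 2.60 CPM in SI epithelium, 1.24, 1.52 and 1.64 CPM in SI tuft cells and 1.03, 0.320, 0.909 and 14 CPM in thymic tuft cells. Library 4 held 86.1% of the thymic sum, the SI epithelium libraries all lay above those of SI tuft cells, and no comparison passed with all libraries. Without library 4 Pecam1 was lower in thymic tuft cells than in epithelium (edgeR adjusted p = 0.0423). Cdh5, which encodes VE-cadherin, was at 3.61, 0, 0.0144 and 0 CPM in thymic tuft cells, had 1 count in SI epithelium and was at 0 in SI tuft cells. Library 4, with the most Pecam1, thus had no count of Cdh5.

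Further fibroblast and pericyte genes were called higher in the thymic libraries more often than all genes (28.5% against SI tuft cells and 28.6% against SI epithelium), a description and not a test. Of 10 fibroblast genes listed, 8 were tested. Of these, 8 rose in thymic against SI tuft cells and 7 against SI epithelium, and 0 fell by edgeR in either. Twist2, which was not tested, had no count in any library. Col6a1, a collagen VI chain, was at 24.3 to 75.2 CPM in thymic tuft cells, 0 in SI tuft cells and 0.170 to 0.263 CPM in SI epithelium. Fbn1 (fibrillin) was at 19.4 to 47.6 CPM in thymic tuft cells, and Col1a2 (collagen I) at 0.607, 1.81, 7.50 and 20.7 CPM in libraries 1 to 4. Of 10 pericyte and smooth muscle genes listed, 9 were tested, and of these 8 rose and 1 fell in thymic against SI tuft cells. Kcnj8, the gene not tested, had no count in any library. Rgs5, a pericyte regulator of G protein signalling, was at 426 to 1047 CPM in thymic tuft cells, 1.95 to 5.09 CPM in SI epithelium and at most 0.0486 CPM in SI tuft cells. Cspg4, the NG2 proteoglycan gene, was at 0.0570 to 7.46 CPM in thymic tuft cells, and Mylk (myosin light chain kinase) was the gene that fell, at 12.2 to 22.2 CPM against 106 to 158 CPM in all SI libraries. Of 13 endothelial genes listed, 9 were tested. Of these, 3 rose and 2 fell in thymic against SI tuft cells, and 6 rose and 1 fell against SI epithelium. In SI tuft cells against SI epithelium 4 rose and 1 fell. Against SI tuft cells, 33.3% higher and 22.2% lower were near the 28.5% and 23.1% of all genes. For thymic tuft cells against SI epithelium, 66.7% were higher and 11.1% lower, beside 28.6% and 22.3% of all genes. For SI tuft cells against SI epithelium, 44.4% were higher and 11.1% lower, beside 10.9% and 11.4%. Flt1 and Vwf were at 14.8 to 33.9 and 9.23 to 19.7 CPM in thymic tuft cells. Kdr, Emcn, Cldn5 and Sox17 had at most 6, 2, 13 and 10 counts in any library. Lyve1 ran the other way, at 0.159 to 0.607 CPM in thymic tuft cells and 5.74 to 20.8 CPM in the SI libraries. Tek was at 40.5 to 99.7 CPM in thymic and 20.5 to 32.5 CPM in SI tuft cells, and Prox1 was at 54.9 to 158 CPM in the tuft libraries of both organs and 17.5 to 23.6 CPM in SI epithelium.

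**Figure D3:**
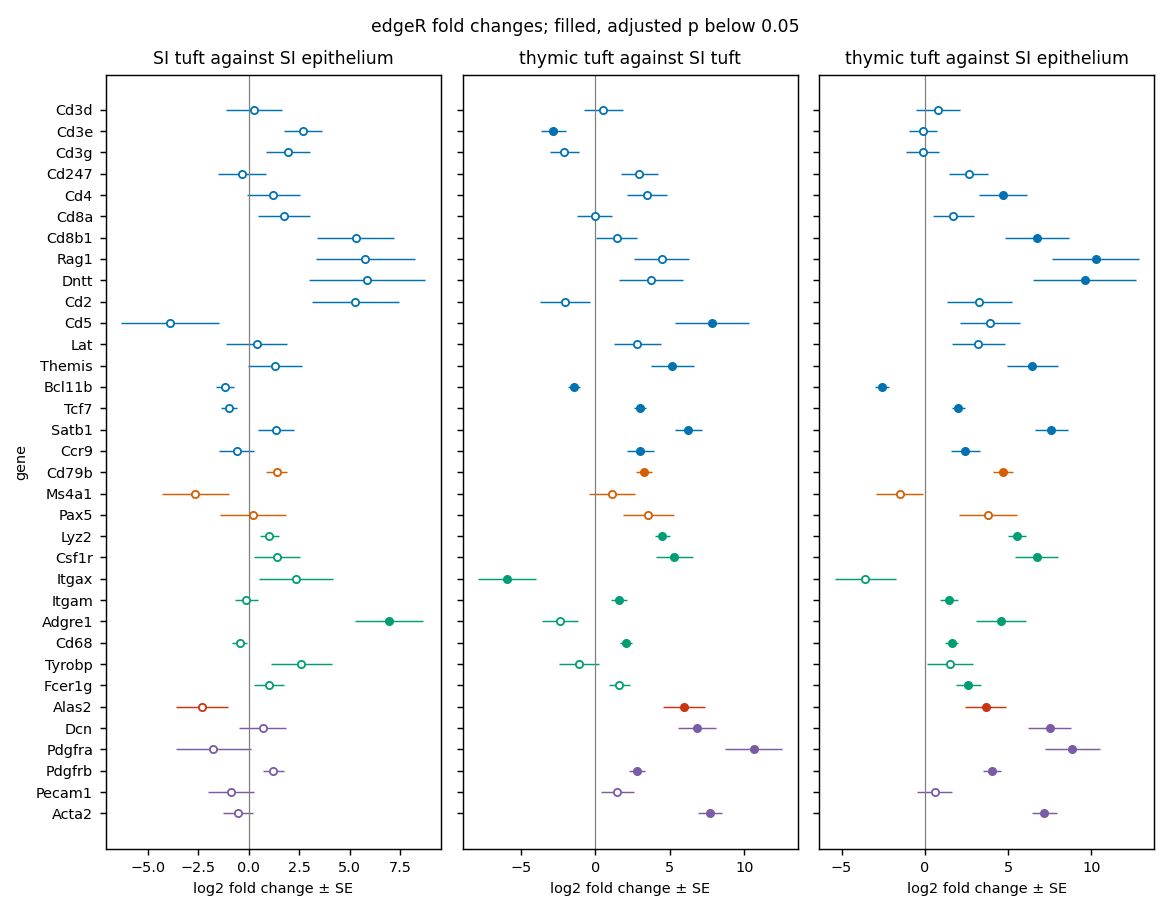
Log2 fold change ± SE (edgeR) of the 34 markers tested in each comparison, filled where the adjusted p was below 0.05 and coloured by source. Values of genes with no count in a group, such as Rag1 and Pdgfra, depend on the prior count and are not bounds; Adgre1 is the filled point in SI tuft cells against SI epithelium.

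Markers of 1 source differed in how evenly the thymic libraries held them. In thymic tuft cells the highest library held a median of 51.3% of the summed CPM of the 34 tested markers, against 38.6% for all genes tested, which were not matched for level. It held more than 75% for 5 of the tested markers and for 7.36% of all genes. Lyz2, Pdgfrb, Satb1, Alas2, Cd79b and Cd68 were the most even, with 28.6% to 33.3% in the highest library. At the other end stood Cdh5 (99.6%), Cd79a (98.7%), Rag2 (96.6%), Cd2 (92.8%), Tyrobp (90.7%), Cd6 (89.9%), Cd8a (88.3%), Lat (87.9%) and Pecam1 (86.1%). Each source except the red cell gene had markers at both ends of this order, as the plot of shares by gene shows. Over the tested markers with a count, the medians were 53.5% against 42.1% in SI tuft cells and 51.1% against 39.3% in SI epithelium.

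**Figure D4:**
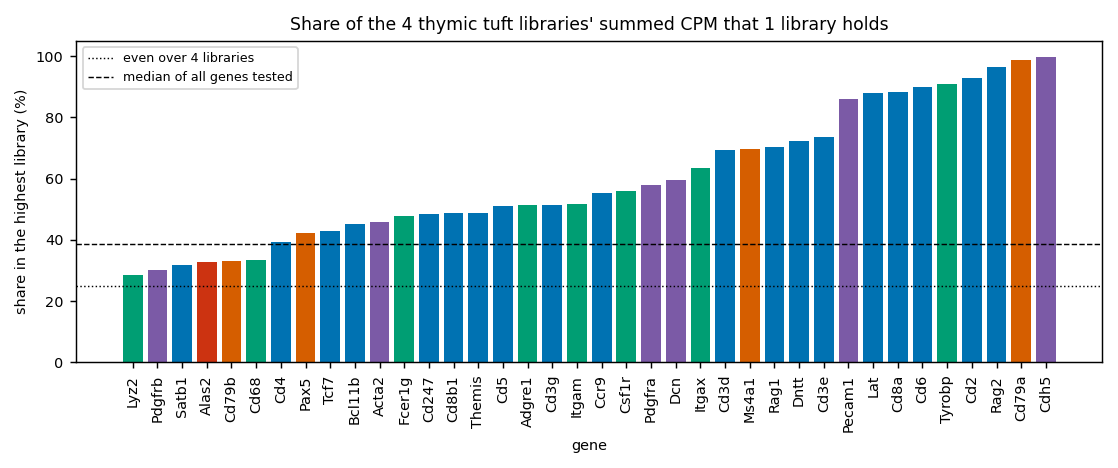
Share (%) of the summed CPM of the 4 thymic tuft libraries held by the highest of them, for the 38 markers with a count there, coloured by source as in the heat map. Dotted and dashed lines mark an equal split (25%) and the median of all genes tested (38.6%); Lyz2 lies lowest and Cdh5 highest.

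Sequences upstream of an uneven and an even marker are shown for orientation, since Rag1 was concentrated in thymic library 1 and Lyz2 was alike in all 4. Windows upstream of annotated starts were found in the RefSeq promoter table for 26 of the 39 genes (32 windows, build GRCm38.p6). The core motif of RUNX factors, TGTGGT, read on both strands, was in the 250 bases upstream of 2 of these 32 windows, which is 6.25% against 14% of all 32851 windows. Those were the windows of Rag1 and Lyz2, of which 100 bases each are given 5′ to 3′ with the motif in capitals. They are chr2:101649533-101649632 for Rag1 and chr10:117282322-117282421 for Lyz2, both on the minus strand. The Lyz2 bases adjoin its annotated gene start at 117282321. The Rag1 bases lie further upstream and do not adjoin its annotated gene start at 101649501. A match describes letters and shows no binding.
Rag1: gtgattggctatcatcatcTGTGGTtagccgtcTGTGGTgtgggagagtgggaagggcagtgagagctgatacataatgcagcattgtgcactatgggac
Lyz2: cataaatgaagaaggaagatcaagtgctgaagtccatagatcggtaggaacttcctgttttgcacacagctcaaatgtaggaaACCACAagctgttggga

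The counts shared between SI epithelium and thymic libraries were then set beside the observed counts, since a small share of a thymic library would bring its abundant markers with it. In SI epithelium the shares alone gave 50% or more of the observed counts for 7 markers: Themis, Satb1, Cd79a, Dcn, Pdgfra, Cdh5 and Acta2. Satb1 had 31 counts over the 3 libraries where the shares gave 37.2, Acta2 had 31 where they gave 32.0, and Dcn had 34 where they gave 25.1. For Acta2 the match held library by library, with 17, 5 and 9 counts observed and 18.8, 3.98 and 9.21 from the shares. Themis had 11 counts where the shares gave 8.09. Lyz2 and Csf1r lay between 25% and 50%, with 668 counts of Lyz2 where the shares gave 189. These limits were chosen after the values were seen.

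For 24 markers the shares gave under 25% of the observed SI epithelium counts, the highest being Adgre1 at 22.1%. Bcl11b had 4802 counts where the shares gave 3.82, Tcf7 had 1934 where they gave 39.7, Itgam 1930 where they gave 39.7, Cd68 1195 where they gave 20.8, Pecam1 449 where they gave 1.25 and Cd3e 286 where they gave 2.44. The other 6 markers had no count in SI epithelium, among them Rag1, for which the shares gave 3.52 counts, and Dntt, for which they gave 2.36. In SI tuft cells no thymic library had a share above 0.0210%, and the shares gave at most 4.55% of any marker's counts (Acta2). The genes used for each SI tuft library were chosen for low counts in the other SI tuft libraries. A share common to these libraries would therefore be understated. Cd3e, Adgre1 and Tyrobp in SI tuft cells had 1371, 854 and 647 counts, of which the shares gave under 0.0345 each.

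In the other direction, thymic libraries 1, 2 and 3 held counts of genes restricted to SI epithelium at 0.860%, 0.959% and 0.918% of SI epithelium libraries 3, 2 and 1. Library 4 held 0.00688% to 0.0170%, a level used to choose these genes. In thymic tuft cells these shares gave at most 8.27% of any marker's counts (Itgax), and 3.96% for Bcl11b. Library 4 had the highest thymic levels of Bcl11b, Tcf7, Cd68, Csf1r and Dcn and the lowest of Themis, Dntt, Itgam, Adgre1 and Fcer1g. Whether thymic and SI tuft counts that the shares do not give came from the sorted epithelial cells or from other cells and free RNA was not tested. Lists of neighbouring cells differed in how many genes were called. Some markers had no count in some thymic libraries. Ptcra was at 0 in all 4, Dntt in library 4, Cd79a in library 4, Itgax in libraries 3 and 4 and Cdh5 in libraries 2 and 4. Other markers had counts in all 4, among them Cd3e (23, 40, 339 and 33 counts) and Rag1 (503, 15, 177 and 34). The same held for Csf1r (139, 638, 516 and 1461) and Pdgfra (531, 18, 199 and 166). Lyz2, Cd79b, Satb1, Tcf7 and Pdgfrb were at 9.58 CPM or more in each.

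**Figure D5:**
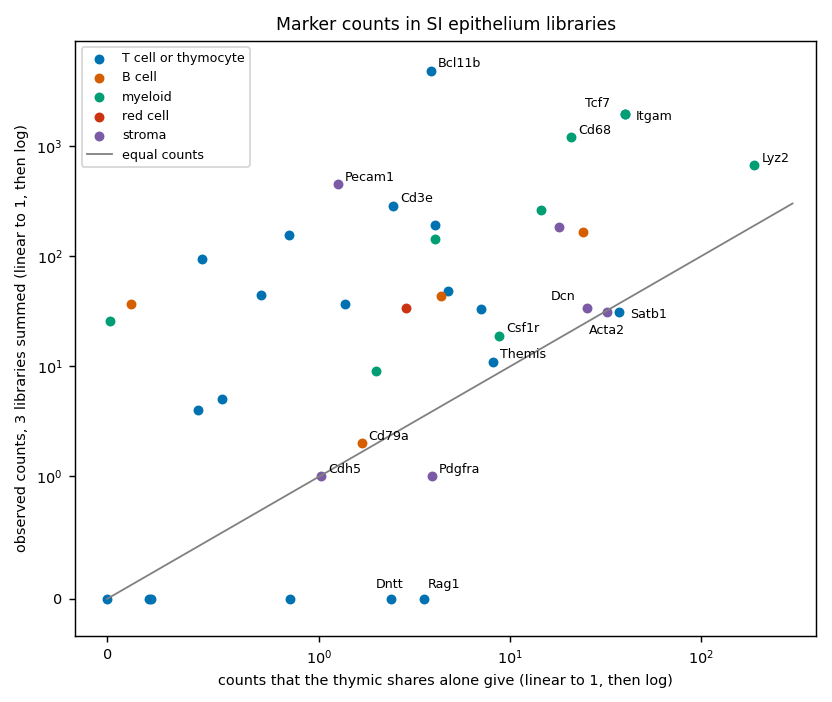
Observed counts of the 39 markers summed over the 3 SI epithelium libraries (y axis) against the counts that the thymic shares alone give (x axis), both linear to 1 and logarithmic beyond, with a line of equal counts. Satb1, Acta2, Cdh5 and Cd79a lie near the line, Bcl11b, Cd3e and Pecam1 far above it, and Rag1 and Dntt at 0 observed counts.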

How the data were processed

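Messenger RNA of 10 sorted libraries was sequenced. Gene counts were made by the authors, and the submitters' processing notes name STAR, GRCm38 and DESeq2 without versions. Per the labels' protocols, cDNA came from the NuGEN Ovation V2 kit and libraries from Nextera XT, without strand information. The deposited counts of 43432 identifiers were used as given, and symbols, coordinates and exon lengths came from GENCODE M21 (42462 identifiers matched, 970 did not). Per the series' design text, 1 SI tuft and 1 SI epithelium library had been discarded by the authors for quality.

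The edgeR quasi-likelihood test (edgeR 4.0.16, R 4.3.3) used all 10 libraries, 1 mean for each group, after filterByExpr (minimum count 10, total 15) and TMM scaling (factors 0.661 to 1.43). P-values were adjusted by the Benjamini-Hochberg method over 19281 genes, with 0.05 as the limit of a call. The spread per gene is thus pooled over the 3 groups. Levels are TMM-scaled CPM. The values of all samples were given for markers called, at a group mean of at least 2 CPM, or defining; from each further list the 2 most abundant genes and up to 2 called genes with the largest change were named. A gene that this rule names among the further lists is not reported here. Other single genes, such as Rag2, Cd3d and Cd247, are markers of the list. Elane, Twist2, Kcnj8, Kdr, Emcn, Cldn5, Sox17 and Lyve1 of the further lists were named in addition, for their low thymic levels. Before the filter on low counts, the further lists held 12 B cell, 17 macrophage and dendritic cell and 9 red cell genes. The markers and lists were chosen with earlier results of these data known.

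Shares between libraries were estimated by least squares with no negative share over 277 to 415 genes whose thymic counts reached 2000 and whose SI tuft counts did not exceed 2 (a tuft library being judged from the other 2), and in reverse as a median ratio over 11 genes. All listed markers were left out of these genes, and genes more than 4 scaled residuals from the fit were dropped, so that 233 to 336 remained. In reverse, each thymic library was paired with the SI epithelium library holding its largest share; the ratios to the other SI epithelium libraries were of similar size (0.571% to 1.41%), so this pairing rests on the forward shares. On simulated counts over 277 genes, shares in SI epithelium were recovered within 0.0120 percentage points. These counts followed the model itself, with counting noise and added outlying genes, so this is not the error of the real shares. Shares in SI tuft libraries and the reverse ratios were not simulated. The alternatives were DESeq2 size factors, no filter, the DESeq2 1.42.0 Wald test, only the groups compared, the replicate number as a block, subtraction of the shares, and removal of each library. No pair of libraries agreed within sampling noise (chi-square per degree of freedom 35.3 or more).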

Additional observations from a re-analysis of the deposited data

Results flagged for a closer look

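In 10 of the 38 markers with a count in the 4 thymic tuft libraries, the highest library lay far from the other 3 (Dixon's test at 95%). Chance marks about 1 in 20 groups of normally distributed values. CPM from low counts, such as those of Rag2, need not be so distributed, and these markers share libraries. The measure was not run over all genes, so whether the markers exceed the other genes was not tested. Library 3 was the high one for 6 markers: Cd3e at 4.89 CPM, Rag2 at 0.462 CPM, Cd2 at 0.967 CPM, Cd6 at 1.90 CPM, Lat at 10.4 CPM and Tyrobp at 9.45 CPM. Library 4 was high for Cd8a at 11.4 CPM and Pecam1 at 14 CPM, and library 1 for Cd79a at 5.79 CPM and Cdh5 at 3.61 CPM. Library 2 was high for 0 of them by this measure. The summed levels of the 5 sources had no such library.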

How the results depend on the processing

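Of 40 called marker results, 26 kept their call under every alternative run and 14 lost it under 1 or more, and 0 reversed. An alternative that gave a marker no adjusted p was not counted as a loss. The called results of Cd5 and Cd8b1 thus had 13 of 16 alternatives, and those of Cd3e and Itgax had 15. In SI tuft cells against SI epithelium, 1 marker was called as reported, 5 by DESeq2, 7 with only these groups fitted, 3 after subtraction of the shares (Satb1, Adgre1 and Acta2) and 1 to 4 when a library was left out (2 without thymic library 1, 3 without thymic library 3 or SI tuft library 4, and 4 without thymic library 4). Adgre1 was called each time. Of all genes tested, 22.3% were called as reported, 21.0% by DESeq2 and 43.5% with only these groups fitted. In that last fit 20 markers were tested. For Satb1 and Acta2 the shares gave 37.2 and 32.0 counts in SI epithelium, more than the 31 observed for each. The subtraction, which stops at 0, thus left almost no counts there, and these calls follow from that. In thymic tuft cells against SI epithelium the count of 21 ranged from 13 to 21 when a library was left out, with 13 without SI epithelium library 3. The share of all genes called moved too, from 50.9% as reported to 36.9% without that library. In thymic against SI tuft cells the count of 18 ranged from 14 to 21 when a library was left out. Of all genes, 51.6% were called there as reported, 40.4% without SI tuft library 3 (14 markers) and 53.4% without thymic library 4 (21 markers). DESeq2 called 22 and 24 markers in thymic tuft cells against SI tuft cells and SI epithelium, beside 40.3% and 39.9% of all genes. Deviations of same-numbered libraries from their group means correlated at -0.04 to 0.10. Differently numbered libraries of different groups gave -0.07 to 0.08. With 3 to 4 libraries a group, such correlations cannot tell whether libraries shared a mouse, and the labels name no pairing of animals. With the replicate number as a block, 1, 18 and 19 markers were called in SI tuft cells against SI epithelium, thymic against SI tuft cells and thymic tuft cells against SI epithelium. The block ended the calls of Ccr9 (edgeR adjusted p = 0.0631 against SI tuft cells and 0.148 against SI epithelium), Cd8b1 (0.0591) and Alas2 (0.0835), the last 2 against SI epithelium, and made Cd4 against SI tuft cells (0.0182) and Pax5 against SI epithelium (0.0445) pass. Without TMM the summed T cell level was 41.7, 29.8 and 167 CPM in SI epithelium, SI tuft and thymic tuft cells, the myeloid level 22.7 CPM in SI epithelium and 360 CPM in thymic tuft cells, the B cell level 41.7 CPM in thymic tuft cells, and the stromal level 3.71 CPM in SI epithelium and 3.22 CPM in SI tuft cells. Subtraction of the shares took the stromal level of SI epithelium to 3.72 CPM. With 3 to 4 libraries a group, depth limits markers below about 0.0776 CPM, and the number of animals and the spread among thymic libraries limit the rest.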
